A study of Mus musculus with 4 samples.

Results

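The MHC class II myeloid cells of the mouse vaginal epithelium are the few cells, captured together with the epithelial cells, that carried transcripts of antigen presentation and of myeloid leukocytes. They were selected on these transcripts. A cell was a member when it held at least 3 unique molecular identifiers (UMIs, the molecule tags that Drop-seq counts) of Cd74, H2-Aa, H2-Ab1 and H2-Eb1 together, and at least 1 UMI of Cd52, Ctss, Tyrobp, Lyz2 and Fcer1g together. It also had to show 200 or more genes, with mitochondrial UMIs making up 20% or less. Of 8446 cells that passed this filter, 53 were members and 8393 were not. Drop-seq captures single cells in droplets and reads the polyadenylated end of their transcripts. The libraries came from C57BL/6 mice, 2 from surgically ovariectomised animals (OVX) and 2 from animals with intact ovaries (WT), all from vaginal epithelium and with no transgene or other treatment named. Each library was a pool of 5 mice, with ages not given in the sources used here. Duplicates are mentioned in the design, but separate pools behind them are not certain. If 1 pool was run 2 times, the p-values between OVX and WT reflect technical spread alone. The vaginae were digested overnight in pronase and the epithelium was pressed out by hand, so no sort or gate for leukocytes was applied.

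MHC class II molecules are pairs of an alpha and a beta chain that show peptides from engulfed proteins to CD4 T cells. H2-Aa and H2-Ab1 encode the chains of the I-A molecule and H2-Eb1 the beta chain of I-E, while Cd74, the invariant chain, holds the peptide groove closed until the molecule reaches an endosome. In stratified mucosa, macrophages, dendritic cells and Langerhans cells carry these molecules, and in the vagina such cells sample antigen at the luminal surface. Ovarian hormones set the thickness of this epithelium and are known to change the leukocytes in it over the oestrous cycle.

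The promoters of the class II chains are shown because these genes chose the cells and are known to share an X box and a Y box, read by the RFX, NF-Y and CIITA machinery. The sequences below are the 300 bases around the annotated gene start in RefSeq, build GRCm38.p6, 5′ to 3′ on the gene's own strand. Capitals mark CTGATTGG, a form of the Y box that holds the inverted CCAAT sequence, and GCAAC, a core of the X box. Both were searched as exact letters on both strands.
H2-Aa, chr17:34287774-34288073, minus strand: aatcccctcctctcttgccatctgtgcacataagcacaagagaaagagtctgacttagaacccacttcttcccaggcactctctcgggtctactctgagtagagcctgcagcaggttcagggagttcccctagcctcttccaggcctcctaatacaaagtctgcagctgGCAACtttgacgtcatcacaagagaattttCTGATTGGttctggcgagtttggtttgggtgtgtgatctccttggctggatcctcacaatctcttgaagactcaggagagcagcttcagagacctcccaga
H2-Eb1, chr17:34305617-34305916, plus strand: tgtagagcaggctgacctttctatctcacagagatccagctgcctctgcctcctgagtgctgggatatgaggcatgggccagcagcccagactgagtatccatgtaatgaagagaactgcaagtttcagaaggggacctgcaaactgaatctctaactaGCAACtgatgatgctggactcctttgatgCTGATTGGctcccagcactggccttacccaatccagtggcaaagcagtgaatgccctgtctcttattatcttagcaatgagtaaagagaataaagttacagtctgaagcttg
In H2-Aa the Y box began 51 bases before the annotated start, with 25 bases between it and the X box core. In H2-Eb1 it began 62 bases before the start, with 24 bases between them. Both motifs have the same order and orientation in the 2 promoters. Of 32851 promoters in the table, 4.10% held CTGATTGG, 35.2% held GCAAC and 1.58% held both. H2-Oa and H2-Eb2 also held both, although members had 2 UMIs of H2-Oa and 0 of H2-Eb2. H2-DMa, H2-DMb1, H2-DMb2 and H2-Ob held no CTGATTGG in the window. H2-DMb1 and H2-DMb2 held GTGATTGG and H2-Ob held TTGATTGG, which differ from it in the first letter alone. The exact search did not count these, so it does not show that a Y box is absent there.

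The selection left few cells near its edge. The 4 class II genes together had a median of 32 UMIs per member (range 3 to 157) and made up 4.47% of all UMIs in members. Of the 8393 other cells, 8338 had 0 UMIs of these genes and none had more than 3. Just inside the threshold lay 4 members with 3 to 5 class II UMIs, and 46 members had 10 or more. Just outside lay 2 cells with 3 class II UMIs and no myeloid UMI, and 1 cell with 1 class II UMI and a myeloid UMI. A further 28 cells had a myeloid UMI and no class II UMI. Of these, 1 cell in WT library 1 held 28 UMIs of the 5 myeloid genes, with 9 UMIs of C1qb, 6 of C1qc and 2 of C1qa. Those UMIs were most of what all other cells held of the C1q genes: the totals over other cells were 11 for C1qb, 7 for C1qc and 3 for C1qa.

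The label was checked against its 6 markers. Of these, Cd74, H2-Ab1, Ctss, Lyz2 and Tyrobp had been used to choose the cells, so only C1qb says anything beyond the choice. C1qb, a chain of complement C1q and a marker of tissue macrophages, was found in 21 of 53 members. Ptprc, the leukocyte surface phosphatase CD45 (chromosome 1, 138062861 to 138175708), was found in 28. Markers of T or NK cells and of fibroblasts had 0 UMIs in members, 3 neutrophil genes had 1 UMI in all, and 2 endothelial genes had 2. Members with no UMI of any C1q gene numbered 27, so the macrophage marker in the list does not cover the whole population.

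Cell numbers and depth differed between the libraries. There were 14 members among 1573 kept cells in OVX library 1 and 21 among 1907 in OVX library 2, against 11 among 2979 in WT library 1 and 7 among 1987 in WT library 2. Members held 7738 and 17140 UMIs in the OVX libraries and 17655 and 4264 in the WT libraries, with a median of 594 UMIs per member and 894 per other cell. The mitochondrial share had a median of 8.05% and 8.68% in OVX members against 4.00% and 4.85% in WT members. It had the same order in the other cells, at 8.99% and 9.70% in OVX against 4.00% and 3.84% in WT. Of all barcodes, 28 occurred in more than 1 library, and 1 member carried such a barcode.

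Members made up a larger share of cells in both OVX libraries than in both WT libraries. The share was 0.890% in OVX library 1 (95% exact binomial interval 0.487 to 1.49%) and 1.10% in OVX library 2 (0.683 to 1.68%). It was 0.369% in WT library 1 (0.184 to 0.660%) and 0.352% in WT library 2 (0.142 to 0.724%). These and the later intervals cover counting error only. The OVX and WT shares did not overlap, averaging 0.996 ± 0.149% in OVX and 0.361 ± 0.0119% in WT libraries (SD, n = 2 each). The difference was 0.635 percentage points, with a p of 0.333 in a two-sided exact permutation test, the smallest that 2 libraries against 2 allow.

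The gate needs a fixed number of UMIs, so depth can set who passes it. When every cell was thinned to 300 UMIs, the expected share was 0.879% and 0.883% in the OVX libraries, against 0.286% and 0.316% in the WT libraries. Thinning left out 239 cells of OVX library 1 and 2 of OVX library 2 with fewer UMIs, among them 2 members. The share counts members among captured cells, so more myeloid cells and fewer epithelial cells released from the tissue cannot be told apart.

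**Figure D1:**
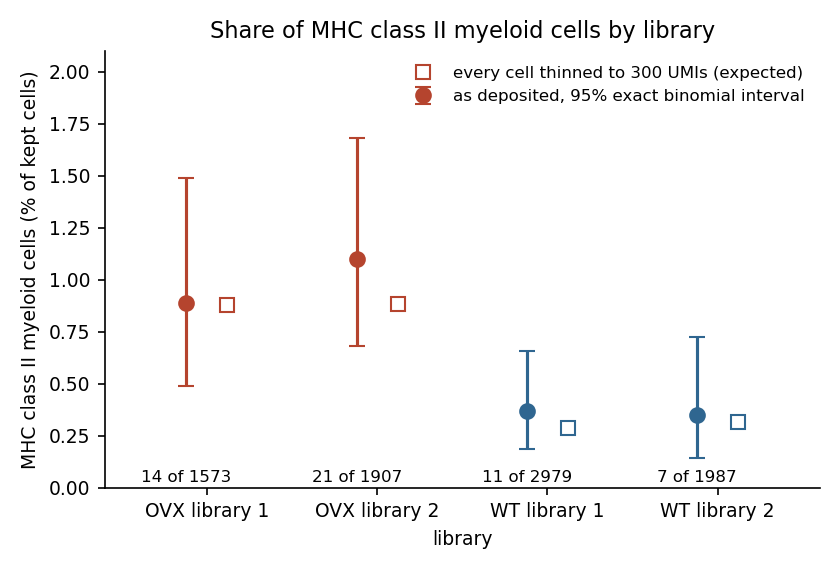
MHC class II myeloid cells as a percentage of kept cells (y axis) in each library (x axis); filled circles are the shares as deposited with 95% exact binomial intervals and open squares the expected shares with every cell thinned to 300 UMIs. The OVX libraries sit at 0.890% and 1.10%, the WT libraries at 0.369% and 0.352%.

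In members the class II chains were present in every library. Cd74 was found in 53 of 53 members, H2-Ab1 and H2-Eb1 in 51 each and H2-Aa in 47. These values describe the choice of cells and were not tested. Cd74 varied between libraries, at 49367 and 16803 UMIs per 1000000 UMIs of these cells (CPM) in the OVX libraries and 10535 and 27674 CPM in the WT libraries. H2-Ab1 varied less, at 10985 and 8110 CPM in OVX against 11781 and 8443 CPM in WT. For both genes the OVX and WT libraries overlapped.

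Around the class II chains, members held transcripts of the machinery that loads them. H2-DMa (chromosome 17, 34119541 to 34139101) encodes a chain of H2-DM, which exchanges the invariant chain peptide for antigen. It had 35 UMIs in 20 members and 5 UMIs in all other cells. By library it stood at 1163 and 525 CPM in OVX and 850 and 469 CPM in WT, with overlap. H2-DMb1 had 19 UMIs and H2-DMb2 had 10, but 20.4% of the 50-base words at the end of the H2-DMb1 transcript occur in other genes, mostly H2-DMb2, so their division is uncertain. H2-Ob, of the H2-DO modulator, had 4 UMIs, H2-Oa 2, and Ciita, the class II transactivator, 3 UMIs in 3 members. Outside the gate, 6 of 7 class II list genes were detected and H2-Eb2 was not.

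The proteases that trim the invariant chain and antigens were found broadly. Of 9 such genes outside the gate, all 9 were detected in members and 7 stood at a higher level than in other cells. Cst3, cystatin C, an inhibitor of cathepsins, had 302 UMIs in 48 members. Its level was 7237 and 5018 CPM in OVX members against 283 and 217 CPM in OVX other cells. In WT members it was 7193 and 7739 CPM, against 453 and 420 CPM in WT other cells. With libraries pooled, other cells stood at 396 CPM, a ratio of 16.3 (95% interval 14.4 to 18.3) that mixes the libraries. Ctsh, a lysosomal cathepsin, was 11.6 times (7.42 to 17.3) and Lgmn, the asparaginyl endopeptidase legumain, 32.1 times (17.7 to 54.6) the level in other cells. Ctsd and Ctsl were not above other cells, at 0.935 (0.254 to 2.40) and 0.899 (0.448 to 1.61) times. The class I pathway was also well represented: B2m, the light chain of class I molecules, had 200 UMIs in 44 members and was 24.5 times (95% interval up to 28.3) the level in other cells. Of the 8 class I genes 7 were detected, Tap2 being the exception.

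The 20 genes outside the gate with the highest ratio of members to other cells were mostly leukocyte genes. They were C1qa, Ms4a7, Aif1, Cybb, Slamf7, H2-DMa, C1qc, Mgl2, Ccr2, C1qb, Gm8995, Laptm5, Ptprc, Cfp, Vim, Rgs2, Lcp1, Fxyd5, Lsp1 and Cyba. They are named in order of the ratio with the count of other cells set to at least 3. C1qa came first in that order, with a ratio of 4048 (95% interval 1316 to 20222), and Cyba last, with 86.3 (58.6 to 125). Slamf7 stood at 5205 (849 to 214052) without that floor, on 1 UMI in other cells. Aif1 (IBA1, an actin-binding protein of macrophages) had 48 UMIs in 24 members against 3 in all other cells. Cybb and Cyba encode the membrane subunits of the phagocyte NADPH oxidase. Cybb had 29 UMIs in 17 members against 2 in other cells. Slamf7, an immune receptor, had 24 UMIs in 17 members. Cfp is properdin, which stabilises the alternative complement convertase, and Vim is the intermediate filament of non-epithelial cells. Gm8995, annotated as a transcribed pseudogene, has 8.43% of its end sequence in common with Gm1966 and others, so its 21 UMIs are uncertain. Of the wider lists, all 12 pan-leukocyte genes outside the gate were detected, as were 16 of 18 myeloid receptor and adaptor genes, 4 of 5 monocyte genes, 12 of 13 lysosome and lipid genes and 10 of 14 immediate early genes. Over all genes outside the gate, 8215 of 25062 were detected in members and 5134 stood above other cells. Ly6c2, of classical monocytes, had 1 UMI in members.

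**Figure D2:**
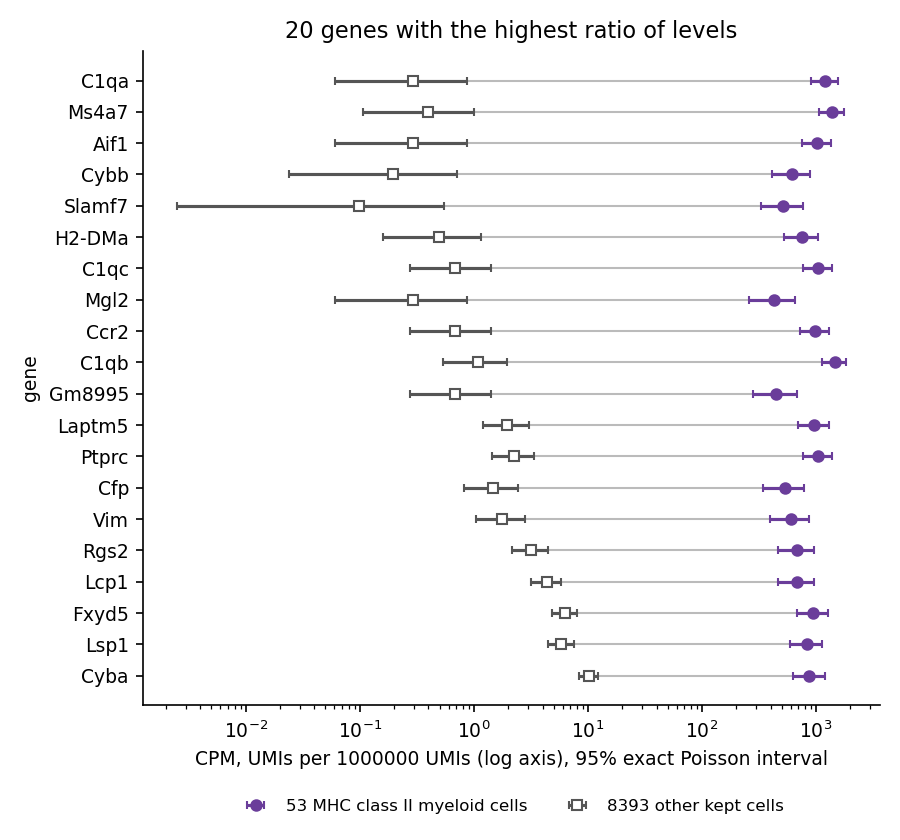
Level in CPM (x axis, log scale) of the 20 genes with the highest ratio (y axis) in 53 MHC class II myeloid cells (filled circles) and 8393 other kept cells (open squares), with 95% exact Poisson intervals. The order is that of the ratio with the count of other cells set to at least 3, from C1qa with a ratio of 4048 to Cyba with 86.3.

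Partly separate patterns ran through the 53 members. A UMI of C1qa, C1qb or C1qc, the genes of complement C1q on chromosome 4 (C1qa at 136895917 to 136898803), was found in 26 members, and 27 had none. These C1q-bearing members were 6 of 14 and 11 of 21 in the OVX libraries and 6 of 11 and 3 of 7 in the WT libraries, or 42.9% and 52.4% against 54.5% and 42.9%, which overlap. All 3 C1q genes were found together in 12 members and at least 2 of them in 23. The split was made on the values themselves and is a description with no test.

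Most other macrophage genes were found more often in the C1q-bearing members. Of 12 genes of the macrophage list detected besides C1q, 10 were found in a larger share of the C1q-bearing members and 2 in a larger share of the others. Apoe, a lipid carrier secreted by macrophages, was found in 23 of the 26 C1q-bearing members and 2 of the 27 others. Ms4a7, a tetraspan protein of macrophages (chromosome 19, 11321039 to 11336146), was found in 15 against 1. Cx3cr1, the fractalkine receptor, was found in 12 against 1. Csf1r, the receptor for macrophage growth factor CSF1, was found in 8 against 2. The 2 exceptions were Mrc1, the mannose receptor CD206, found in 2 against 6, and Cd163, a haemoglobin scavenger receptor, in 0 against 2. Of the myeloid receptor and adaptor list, Clec7a, the beta-glucan receptor Dectin-1, was found in 8 against 2, but Fcgr2b in 4 against 7. Of the gate genes, Tyrobp was found in 17 against 10, Fcer1g in 17 against 6 and Lyz2 in 15 against 10. Ctss, also a gate gene, was found in 22 against 25. Median depth was 586 UMIs in C1q-bearing members and 712 in the others. Within libraries the C1q-bearing members were the deeper ones in OVX library 1 (460.5 against 327 UMIs) and WT library 1 (1035 against 995), and the shallower ones in OVX library 2 (578 against 902) and WT library 2 (496 against 619.5). The class II chains were on in both: Cd74 stood at 28349 CPM in C1q-bearing members and 15031 CPM in the others.

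Markers of type 2 dendritic cells were divided, with 3 of 5 detected genes found in a larger share of the members without C1q. Cd209a, a C-type lectin (DC-SIGN family), was found in 0 of 26 C1q-bearing members and 5 of 27 others. Mgl2, a galactose-binding lectin of dermal dendritic cells and some macrophages, was found in 4 against 9, and Clec10a, a related lectin, in 0 against 3. Itgax, the integrin CD11c, was found in 4 against 2, and Sirpa, an inhibitory receptor, in 2 against 0. Ccr2, the receptor that brings monocytes out of the blood, was found in 6 against 12. WT library 1 had the other order for Mgl2 (3 of 6 C1q-bearing members against 0 of 5 others) and for Ccr2 (4 against 1). H2-DMa was found in 7 against 13. A UMI of Cd209a, Sirpa, Clec10a, Mgl2 or Itgax was held by 23 members, of which 8 also held C1q, and 12 members had neither. Cd207, langerin of Langerhans cells, had 5 UMIs in 5 members and 0 in all other cells, and 4 of those 5 also held C1q. Epcam, which Langerhans cells share with epithelium, had 21 UMIs in 14 members. For type 1 dendritic cells, Xcr1 had 0 UMIs, while Irf8 had 9 in 6 members and Batf3 had 3. Ccr7, of migrating dendritic cells, was found in 1 member.

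**Figure D3:**
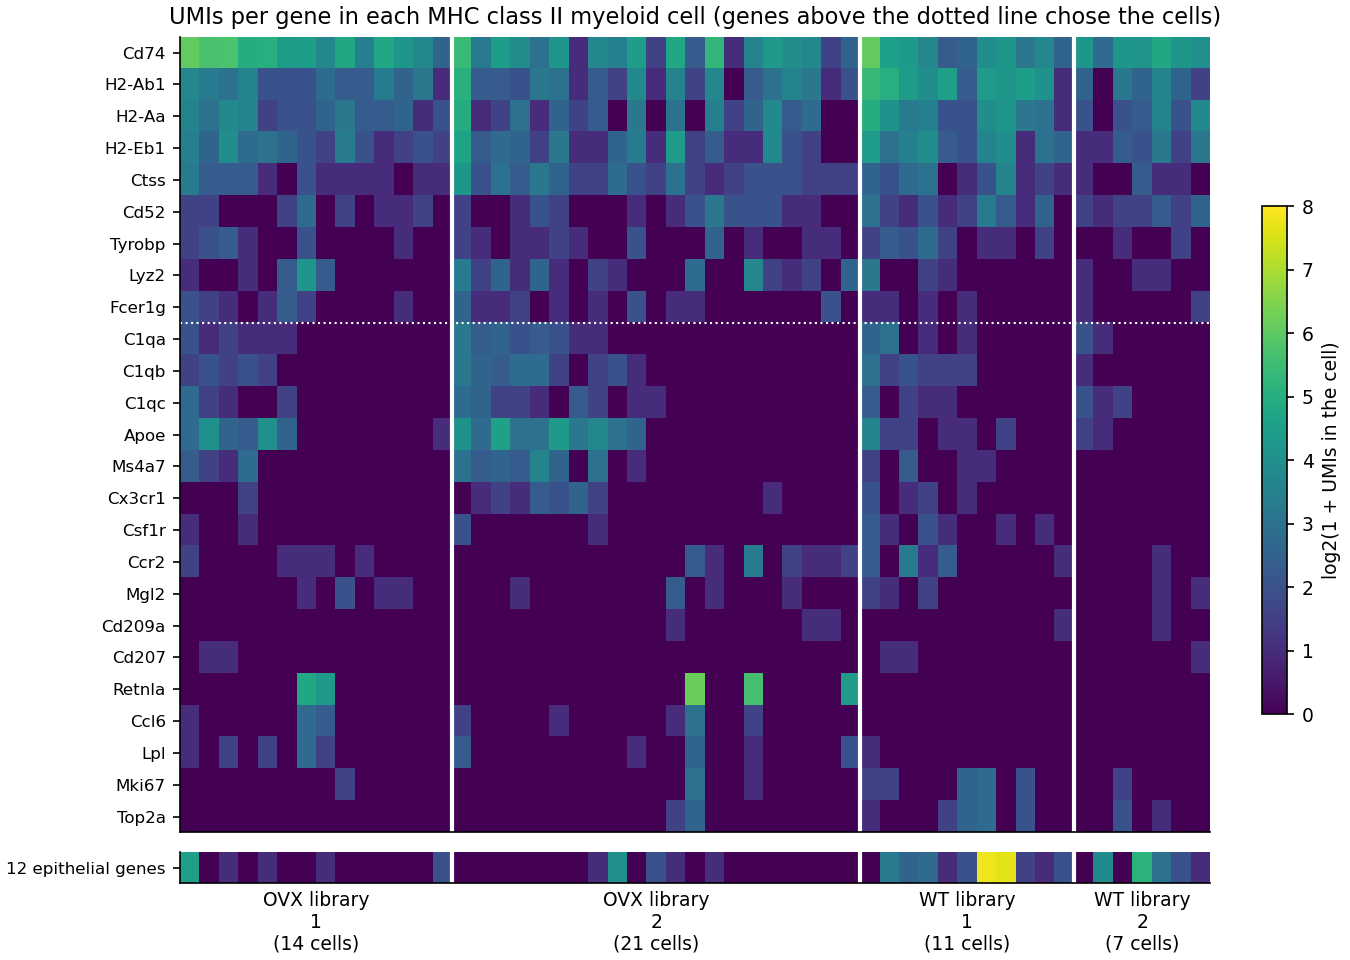
UMIs on the log2(1 + UMIs) scale in each of the 53 MHC class II myeloid cells (columns, grouped by library and ordered by C1q UMIs) for 25 genes (rows) and for the sum of 12 epithelial genes (bottom strip). C1q and Apoe lie at the left of each block, Ms4a7 likewise except in WT library 2 where it had 0 UMIs, Retnla appears in 5 cells of the OVX libraries, and the 2 cells with 205 and 219 epithelial UMIs stand out in WT library 1.

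A group of 5 members, all in OVX libraries, carried Retnla. It encodes RELM-alpha, a secreted protein of alternatively activated macrophages (chromosome 16, 48842551 to 48844461). The counts were 19 and 27 UMIs in cells of OVX library 1 and 20, 49 and 72 UMIs in cells of OVX library 2, and the other 48 members had none. None of the 5 held a C1q, Apoe or Ms4a7 UMI. The same 5 cells held all 20 UMIs of Lyz1, all 8 of Fn1 (fibronectin), 19 of 24 of Ccl6 (a chemokine), 17 of 28 of Lpl (lipoprotein lipase) and 44 of 95 of Lyz2. Each of the 5 had Ccr2, 17 UMIs in all, against 13 of the other 48 members. Lyz1 and Lyz2 share 17.7% of the end sequence of Lyz1, so the split between these lysozymes is uncertain. That these cells were looked at as a group was decided after the values were seen.

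The Retnla-bearing cells were 2 of 14 members in OVX library 1, 3 of 21 in OVX library 2, 0 of 11 in WT library 1 and 0 of 7 in WT library 2. That is 14.3% of OVX members (95% exact binomial interval 4.81 to 30.3%), against 0 of 18 WT members (0 to 18.5%). At this number of WT cells a difference in the share of such cells was not detectable.

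Proliferation genes were concentrated in few members. The 20 cell cycle genes had 172 UMIs in members, of which 148 lay in 11 cells with at least 5 each. Those cells were 1 of 14 and 3 of 21 members in the OVX libraries and 6 of 11 and 1 of 7 in the WT libraries. Mki67, a marker of cycling cells, had 2 and 8 UMIs in OVX members and 18 and 2 in WT members. Pooled over libraries, Top2a, a topoisomerase of dividing cells, was at 1.38 times (0.913 to 1.99) the level of other cells. By library it stood at 0 and 408 CPM in OVX members and 963 and 938 CPM in WT members. Other cells had 25.3 and 85.8 CPM in OVX and 588 and 435 CPM in WT. Members were thus above other cells in OVX library 2 and both WT libraries, and below in OVX library 1. Of the 11 cells, 1 also held more epithelial than class II UMIs, and WT library 1 had the deepest members.

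The receptors for ovarian hormones were at or near 0. Esr1, oestrogen receptor alpha, had 0 UMIs in 53 members, which allows a share of cells with a UMI of up to 5.66%. Esr2 also had 0, and Pgr had 2. Nr3c1, the glucocorticoid receptor, had 9 UMIs in 8 members. In other cells Esr1 stood at 123 CPM and Pgr at 108 CPM.

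Inflammatory and interferon genes had few UMIs and went both ways. Among 9 inflammatory genes measured, 7 were detected and, with libraries pooled, 6 stood above other cells. Il18 was at 8.03 times (1.62 to 24.3) and Tgfb1 at 5.86 times (1.58 to 15.3) the level of other cells, on 3 and 4 UMIs. Ptgs1, cyclooxygenase 1, was at 3.49 times (1.39 to 7.25) on 7 UMIs, and Nfkbia, an NF-kB inhibitor, at 0.884 times (0.592 to 1.27) with libraries pooled. By library Nfkbia stood at 517 and 700 CPM in OVX members against 393 and 496 CPM in OVX other cells. In WT it stood at 510 and 938 CPM in members against 798 and 707 CPM in other cells. Only in WT library 1 was Nfkbia lower in members. Il1b, a pro-inflammatory cytokine, had 3 UMIs in WT library 1 and 0 elsewhere in members, and Tnf had 1. Over all libraries the 11 interferon response genes summed to 897 CPM in members and 1305 CPM in other cells. Of them, 5 stood above other cells and 6 below. By library the sums were 1163 and 817 CPM in OVX members against 2607.5 and 2168 CPM in OVX other cells. In WT they were 963 and 469 CPM in members against 884 and 1313 CPM in other cells. Only in WT library 1 was the sum of members above that of other cells. Bst2, tetherin, had 7 UMIs in 7 members, at 16.9 times (6.59 to 36.2) the level of other cells and above it in all 4 libraries. Ifitm3 was at 0.318 times (0.159 to 0.570). Chemokine genes summed to 2455 and 1984 CPM in OVX members against 283 and 0 CPM in WT members; most of these UMIs were Ccl6, Cxcl16, Ccl9 and Ccl5. The co-stimulatory Cd86 had 5 UMIs in 4 members and Cd83 had 4.

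Epithelial transcripts were present in some members, and their number differed between the groups. The 12 epithelial genes, mainly keratins, had 0 UMIs in 28 members, 25 of them in OVX and 3 in WT libraries. In 4 members, all in WT libraries, they outnumbered the class II UMIs. Those cells held 205 and 219 epithelial UMIs in WT library 1 and 34 and 13 in WT library 2. They had 44.4% of all UMIs of WT members and 471 of their 512 epithelial UMIs. No doublet caller was run, so cells captured in pairs remain. In the other cells, too, the epithelial genes summed to 10752 and 10778 CPM in OVX against 55691 and 35743 CPM in WT libraries. The part of paired capture or free keratinocyte RNA in these counts was not tested.

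**Figure D4:**
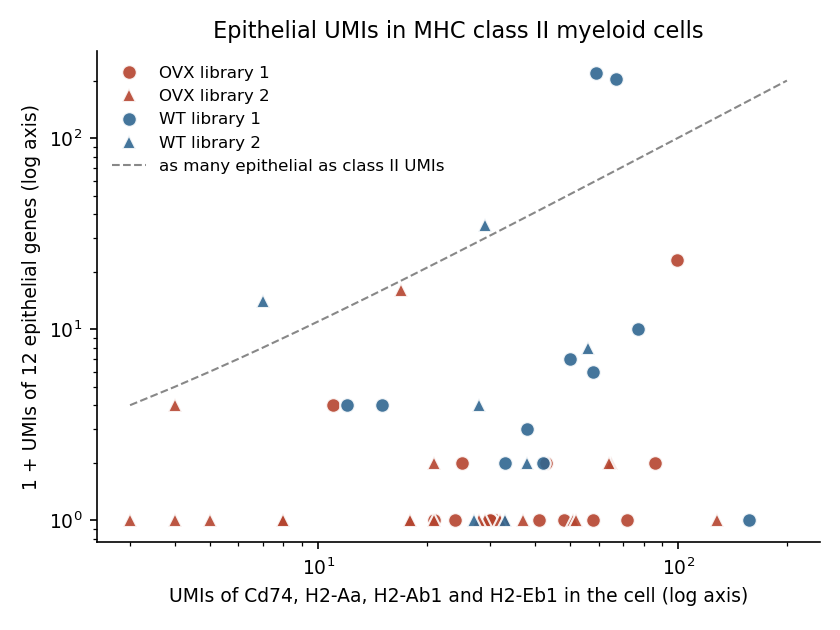
UMIs of the 12 epithelial genes plus 1 (y axis, log scale) against UMIs of the 4 class II genes (x axis, log scale) in each MHC class II myeloid cell, with colour and symbol for the library; the dashed line marks equal numbers. Above it lie 4 cells, with 205, 219, 34 and 13 epithelial UMIs, all from WT libraries.

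Between OVX and WT members, Retnla, Apoe, Malat1, mt-Rnr2, Gm42418, Ccl6, Lyz1, Lpl and Ms4a7 were higher in OVX. Krt14, Krt5, Krtdap, Lgals7, Fam162a, Txn1, Il1r2, Hspb1, Sfn and S100a6 were lower in OVX. UMIs were summed over the members of each library and tested with edgeR's quasi-likelihood test, with the 9 gate genes left out. Of 458 genes tested, 9 were called higher (1.97%) and 10 lower (2.18%) at a Benjamini-Hochberg adjusted p under 0.05. The sums cannot tell a change in the mix of cells from a change of level in each cell, and the test counts UMIs, not cells. DESeq2 called 10 of the 19, and with no filter on low counts Retnla alone of the 19 was called in edgeR. Without OVX library 1 no gene was called (25 at an unadjusted p under 0.05), and without OVX library 2 only Retnla and Krt14 were. Without WT library 1, 13 genes were called, 9 of them among the 19, and without WT library 2, 31 were called, 17 of them among the 19.

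Apoe (chromosome 7, 19696109 to 19699188) had 51 and 110 UMIs in OVX members against 19 and 3 in WT members. This was 6591 and 6418 CPM in OVX against 1076 and 703.6 CPM in WT, and the log2 fold change was 2.81 ± 0.59 (SE) with an edgeR adjusted p of 0.000131. It was found in 17 of 35 OVX members and 8 of 18 WT members. Within the C1q-bearing members alone, Apoe stood at 11818 and 14148 CPM in OVX against 2466 and 2117 CPM in WT, with no overlap. In other cells Apoe was at 1758 and 1275 CPM in OVX against 621 and 646 CPM in WT. The difference between those 2 effects was 1.70 ± 0.67 on the log2 scale, with an unadjusted p of 0.0112 in the edgeR interaction test and an adjusted p of 1.

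Ms4a7 had 13 and 44 UMIs in OVX members against 8 and 0 in WT members. The edgeR log2 fold change was 2.74 ± 0.83 (adjusted p = 0.0269). The call was lost without WT library 2 (edgeR adjusted p = 0.0681), without either OVX library (0.703 and 0.581), without the 4 members rich in epithelial UMIs (0.320), with library-size scaling (0.0588) and in DESeq2 (0.244). The call was also lost with no filter on low counts (edgeR adjusted p = 0.810). The same held with a replicate block (0.633) and a crossed replicate block (0.0858), which are described below. The log2 fold change in all these fits was 2.09 to 3.04. C1qa, C1qb and C1qc were tested and did not pass, at log2 fold changes of 0.83 ± 0.77, 1.36 ± 0.75 and 0.89 ± 0.80. Over the macrophage list, 7 of 18 genes were tested, 2 were higher and none lower. Of all 458 genes tested, 1.97% were higher and 2.18% lower. The median log2 fold change was 1.36 over the list and -0.02 over all 458 genes.

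Retnla had 46 and 141 UMIs in OVX members against 0 and 0 in WT members. That is at least 54.9-fold higher in OVX, against 3 counts over the WT group (edgeR adjusted p = 5.44e-14), and it rests on the 5 cells described above. Ccl6 had 11 and 13 UMIs against 0 and 0, at least 7.05-fold higher (edgeR adjusted p = 0.00139), in 8 OVX members. Lyz1 had 9 and 11 UMIs against 0 and 0, at least 5.87-fold higher (edgeR adjusted p = 0.00358), in the 5 Retnla-bearing cells alone. Lpl had 13 and 14 UMIs in OVX members against 1 and 0 in WT members, which gives a pooled ratio of 23.8 (95% counting interval 3.92 to 974, edgeR adjusted p = 0.00658). In DESeq2 the calls of Ccl6, Lyz1 and Lpl were lost, with adjusted p of 0.0984, 0.191 and 0.183. Without the 4 members rich in epithelial UMIs those of Lyz1 and Lpl were also lost (edgeR adjusted p = 0.0809 and 0.0958). In other cells Retnla, Ccl6, Lyz1 and Lpl were each at or under 2.53 CPM in every library.

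The remaining higher RNAs stood apart by group in the other cells too. Malat1, a nuclear long RNA, stood at 22874 and 23629 CPM in OVX members against 5721 and 4925 CPM in WT members, a log2 fold change of 2.16 ± 0.34 (edgeR adjusted p = 7.32e-08). In other cells it stood at 25036 and 18079 CPM in OVX against 3350 and 4650 CPM in WT. The mitochondrial ribosomal RNA mt-Rnr2 was at 62807 and 78705 CPM in OVX members against 35174 and 42214 CPM in WT members, and in other cells at 77362 and 83113 CPM in OVX against 33868 and 26414 CPM in WT. Gm42418, a long noncoding RNA, had 20 and 78 UMIs in OVX members against 3 and 4 in WT members (edgeR adjusted p = 0.00125), and in other cells it was at 2161 and 2776 CPM in OVX against 835 and 1449 CPM in WT. Malat1 and Gm42418 were higher in OVX, as was the mitochondrial share given above. Within a group the order of the libraries did not always match. Malat1 ran opposite to that share in WT members and in the other cells of both groups, and with it in OVX members. Gm42418 ran opposite to it in WT other cells only. The RNA mt-Rnr2 is itself counted in that share, so it had to move with it. The part of the mitochondrial share in the result was not tested.

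The lower genes were mostly genes of the keratinocytes. Krt14, a basal keratin, had 2 and 12 UMIs in OVX members against 183 and 33 in WT members, a log2 fold change of -4.03 ± 0.58 (edgeR adjusted p = 1.72e-09). Of its 230 UMIs, 194 lay in the 4 members rich in epithelial UMIs. Those cells also held 126 of 143 UMIs of Krt5, its basal keratin partner, 61 of 70 of Lgals7 (galectin-7 of stratified epithelia), 36 of 44 of Txn1 (thioredoxin), 16 of 17 of Sfn (an epithelial 14-3-3 protein) and 65 of 98 of S100a6 (a calcium-binding protein). Krtdap (36 UMIs, a secreted keratinocyte protein) and Hspb1 (18 UMIs, a small heat shock protein) lay wholly in them and had 0 UMIs in OVX members. Krtdap was thus at least 13.6-fold lower in OVX, against 3 counts over the OVX group, and Hspb1 at least 6.81-fold lower. Fam162a and Il1r2, the interleukin-1 decoy receptor, also had 0 UMIs in OVX members and were at least 12.1-fold and 8.32-fold lower. Of their UMIs, 30 of 32 and 19 of 22 lay in the same 4 members.

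Without those 4 members, 322 genes could be tested, and 5 were called in edgeR, all higher in OVX: Retnla, Malat1, Apoe, Gm42418 and Ccl6. Of the 10 lower genes only Krt14, Krt5 and S100a6 could be tested then, and none of these 3 was called. Their log2 fold changes were -1.71, -0.58 and -0.51 (edgeR adjusted p = 0.505, 0.988 and 0.988). The rule that left out the 4 members counted Krt14 and Krt5, so the loss of their calls was in part built into it. It also took out 44.4% of the UMIs of WT members. In other cells Krt14 was at 2281 and 2222 CPM in OVX against 17586 and 16672 CPM in WT. With all members in, 6 of 12 genes of the epithelial list were tested, 3 were lower and none higher. Their median log2 fold change was -3.14. Of all 458 genes tested, 2.18% were lower and 1.97% higher.

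**Figure D5:**
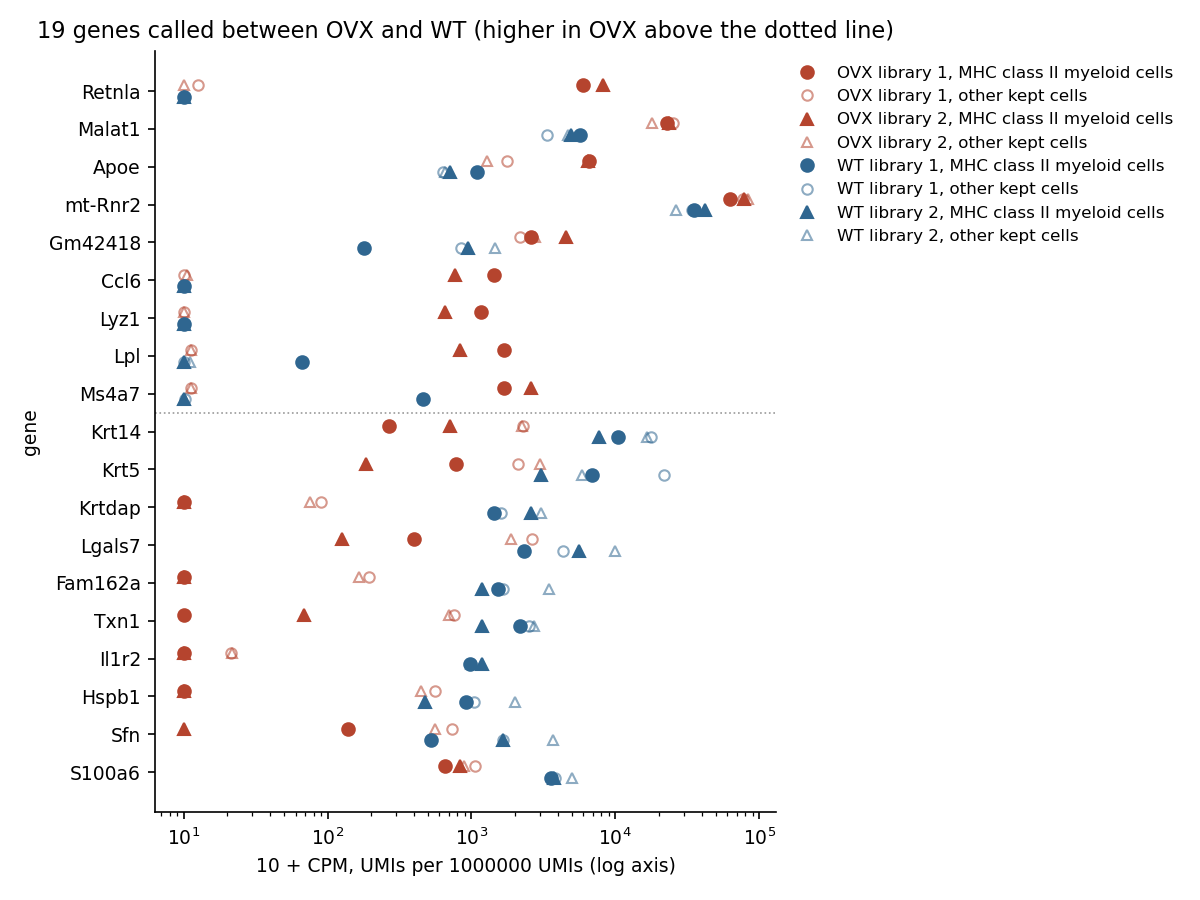
Level plus 10, in CPM (x axis, log scale), of the 19 genes called between OVX and WT (y axis) in MHC class II myeloid cells (filled) and other kept cells (open) of each library. Retnla, Ccl6 and Lyz1 sit at the left edge in both WT libraries and far to the right in OVX members, while for Malat1 and Krt14 the other cells are separated in the same direction.

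Outside these genes the antigen presentation lists gave no call. Of the class II list 2 genes were tested, of the proteases 6 and of the class I list 4, with median log2 fold changes of 0.35, 0.84 and 0.39. The pan-leukocyte list had 6 genes tested with a median of 0.36, and the cell cycle list 4 with a median of -0.90. The chemokine list had 2 tested and 1 higher, and the lysosome and lipid list 7 tested and 1 higher, where 1.97% of all genes tested were higher. These were Ccl6 and Lpl, which had 19 of 24 and 17 of 28 UMIs in the 5 Retnla-bearing cells. For Cst3 the log2 fold change was -0.24 ± 0.43 and for B2m 0.46 ± 0.51 (SE), neither past the threshold.

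The difference of the OVX effect between members and other cells was tested in 10999 genes, with the library as a block, and 0 were called (0%) by edgeR, with 89 at an unadjusted p under 0.05. Under the alternatives run, among them library-size scaling and leaving out each library, the count was also 0. The 5 genes with the lowest p that were relatively higher in OVX members were Crip1, Plbd1, Wfdc17, Actr3 and Acp5, and the 5 relatively lower were Lcp1, Id2, Xist, Rgs2 and Lsp1. None passed. Crip1, a small LIM protein, had 2585 and 1750 CPM in OVX members against 227 and 1407 CPM in WT members, and 221 and 164 CPM in OVX against 253 and 421 CPM in WT other cells (log2 difference 2.95 ± 0.76). Lcp1, the leukocyte actin bundler L-plastin, had 1034 and 292 CPM in OVX members against 850 and 938 CPM in WT members, and 17.7 and 13.0 CPM in OVX against 0.860 and 2.08 CPM in WT other cells (log2 difference -4.14 ± 1.15). For Retnla and Lyz1, which had 0 UMIs in WT members and in WT other cells, the difference could not be estimated. Wfdc17 had 0 UMIs in WT members and in OVX other cells, so its log2 difference of 15.9 ± 5.2 rests on those zeros.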

How the data were processed

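Drop-seq was run on vaginal epithelium, and the authors deposited a matrix of UMI counts (genes by barcodes) for every library; its whole numbers show that no scaling was applied. Per the submitters' processing notes, the build was mm10 and Seurat 2 was used. Aligner, annotation and barcode rule: not given in the sources used here. Totals were 991112 and 1684967 UMIs in the OVX libraries and 5845107 and 1934634 in the WT libraries, in 3000, 2000, 3000 and 2000 barcodes. This depth, and 7 to 21 members a library, limit the precision of every value.

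The members, gene lists and tests were chosen with earlier results of these data known. Cells were filtered at 200 genes and 20% mitochondrial UMIs and gated on 9 genes as described. Members against other cells is a description, with exact binomial intervals for shares of cells and exact Poisson intervals for levels in UMIs per 1000000 UMIs (CPM), and a floor of 3 counts. Named genes were all genes of 26 lists (250 genes), the 20 with the highest ratio of levels among genes with at least 20 member UMIs and 3 cells in each of 3 libraries, and called genes, or the 5 with the lowest p in a direction with fewer calls. The mast cell genes were not among the symbols used. UMI sums per library were tested with edgeR 4.0.16 (TMM, filterByExpr with a minimum count of 3, quasi-likelihood test, Benjamini-Hochberg, R 4.3.3), OVX against WT, within members and as an interaction with the other cells with the library as a block. The scripts were tested on simulated data. DESeq2 1.42.0, other scalings, filters and gates, thinning and left-out libraries were alternatives. No doublet caller was run, since an earlier run on these cells had marked too few cells to be of use. Gene positions and shared end sequence (50-base words in the last 500 bases) come from GENCODE vM21 on GRCm38, which matched 94.1% of 25071 symbols and may differ from the annotation used for counting. The use of strand in counting is likewise unknown.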

Additional observations from a re-analysis of the deposited data

Results flagged for a closer look

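Cells that the report does not use also passed the gate. Of 1554 barcodes that failed the filter on genes or mitochondrial UMIs, 8 held at least 3 class II UMIs and a myeloid UMI (0.515%). They are given here because these barcodes enter no comparison. They were 7 of 1427 such barcodes in OVX library 1, 1 of 93 in OVX library 2, 0 of 21 in WT library 1 and 0 of 13 in WT library 2. They had 78 to 197 detected genes, 6 to 22 class II UMIs and no epithelial UMI. The filter removed far more barcodes from OVX library 1 than from the WT libraries, so the WT values allow shares of up to 14.3% and 23.1% and no comparison can be made.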

How the results depend on the processing

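The share of members stayed higher in OVX under every alternative run: other class II, myeloid, gene and mitochondrial thresholds, thinning to 200, 300 or 500 UMIs, and leaving out epithelial-rich members, shared barcodes or any 1 library. The difference ranged from 0.449 to 1.03 percentage points against 0.635, and 0.529 to 0.740 with 1 library left out. The count of 19 changed genes moved more. DESeq2 called 10, no filter 3 (1 of them among the 19), the gate without epithelial-rich members 5, and library size alone 17. Leaving out 1 library gave 0 to 31 calls: 0 without OVX library 1, 2 without OVX library 2, 13 without WT library 1 and 31 without WT library 2; the sample left alone in its group is assumed to vary like the other group. None of the 19 reversed its direction in the fits that could test it; leaving out a library left 13 to 18 of them testable. Shared replicate numbers do not pair the libraries by the labels, and the replicate 1 minus 2 differences of OVX and WT had a correlation of -0.124 over 458 genes. The replicate block gave 3 calls (Retnla, Malat1, Krt14), and the crossed replicate block, chosen after seeing the data, gave 8. The interaction count was 0 under all alternatives, including one without epithelial-rich members added after seeing the data. Few cells and UMIs, most of all 4264 UMIs in WT library 2, limit what could be detected. The cause of each change was not tested.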

Other observations

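Ighm, the constant region of immunoglobulin M heavy chains, had 10 UMIs in 7 members and 0 UMIs in all other kept cells. It had 3 and 4 UMIs in OVX members and 1 and 2 UMIs in WT members. The other B or plasma cell genes in the tables, Cd79b and Jchain, had 0 UMIs in members. Ighm was named after its values were seen.

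The cell of WT library 1 that held C1q but no class II UMI had 1973 UMIs, 8 UMIs of Ctss, 10 of Cd52, 5 each of Tyrobp and Fcer1g, 12 of Cst3, 3 of Cx3cr1, 0 of Cd74 and 4 epithelial UMIs. It was not a member, and no other kept cell without class II UMIs had more than 4 myeloid UMIs.

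Cd74 was higher in C1q-bearing members than in the others within each library, at 59088 against 37639 CPM in OVX library 1, 19936 against 14202 CPM in OVX library 2, 18709 against 5297 CPM in WT library 1 and 29640 against 26695 CPM in WT library 2. In WT library 1 the members without C1q included the cells with 205 and 219 epithelial UMIs, which held 8000 of their 10760 UMIs. The values of WT library 2 rest on 42 and 76 UMIs of Cd74. Cd74 was among the genes that chose the cells, and these values were not tested.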
